A study of Caenorhabditis elegans with 2 samples.

Results

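Distal intergenic peaks of PHA-4 are the places on the autosomes of Caenorhabditis elegans where this transcription factor was recovered outside every annotated gene and far from the start of every protein-coding transcript. A peak was taken as distal when its summit lay inside no gene of any kind in the Ensembl annotation and more than 2000 bp from the 5′ end of every protein-coding transcript, so position alone chose the members. Of 7847 peaks in the optimal list deposited by the authors, 6171 lay on the 5 autosomes and 771 of these were distal, or 12.5% (95% Wilson interval 11.7 to 13.3). The sequence that meets the same rule, called eligible below, made up 12.8% of autosomal bases, 10.6 Mb of 82.6 Mb. Peaks were therefore about as frequent there as over the autosomes as a whole, at 72.8 per Mb (exact Poisson interval 67.7 to 78.1).

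The study used ChIP-seq, which sequences the DNA bound to an immunoprecipitated protein, on whole L3 larvae of both sexes. There was 1 group with 2 biological replicates. Strain OP37 carries unc-119(ed3) III and wgIs37, an insertion tied to pha-4, and the labels describe the bound protein as eGFP-pha-4. Both replicates share this genotype and 1 control file. What the antibody recognised was not settled, since the antibody entry reads pha-4. Worms were profiled whole, so the tissue in which a distal site was bound cannot be read from these data, and read depth is unknown.

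PHA-4 is the worm's FoxA protein, a forkhead factor. FoxA proteins can bind their sites in closed chromatin, and PHA-4 is known as the factor that gives cells of the embryonic pharynx their identity, with later roles in the intestine and in longevity under dietary restriction. Worm genes lie close together and most known control sequence sits just upstream of a gene, so stretches far from any start are scarce. The forkhead consensus searched begins with T, goes on with a purine, a pair of T, then G or T and a further purine, and ends with a pyrimidine. GA repeats, runs of alternating G and A, are common at promoters in worms.

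The sequences of some of the highest distal peaks show these letters directly. Each line gives the summit and 50 bases to either side, on the + strand of build ce11 (WBcel235) as read from the RefSeq genome, with matches on either strand to the forkhead consensus or to GAGAGA in capitals. The first 6 are the highest distal peaks and the other 3 lie in intergenic spaces that held 5 or 6 of them.
nte-1-to-pdhk-2, chrIII:8733447-8733547: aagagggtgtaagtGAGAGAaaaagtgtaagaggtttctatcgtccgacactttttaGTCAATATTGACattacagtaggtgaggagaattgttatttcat
Y57G11C.38-to-eps-8, chrIV:14875098-14875198: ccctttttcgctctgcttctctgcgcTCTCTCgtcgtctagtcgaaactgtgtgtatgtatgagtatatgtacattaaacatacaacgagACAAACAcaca
sgn-1-to-F07H5.13, chrII:8787538-8787638: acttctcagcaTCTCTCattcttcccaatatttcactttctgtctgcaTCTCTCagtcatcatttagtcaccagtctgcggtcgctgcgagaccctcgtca
F56C9.8-to-lab-2, chrIII:7322093-7322193: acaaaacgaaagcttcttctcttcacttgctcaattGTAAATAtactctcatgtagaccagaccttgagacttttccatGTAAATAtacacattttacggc
fbxa-219-to-Y54F10BM.9, chrIII:2294890-2294990: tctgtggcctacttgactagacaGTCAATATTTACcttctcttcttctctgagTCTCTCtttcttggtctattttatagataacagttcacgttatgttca
gcy-12-to-vhp-1, chrII:5320247-5320347: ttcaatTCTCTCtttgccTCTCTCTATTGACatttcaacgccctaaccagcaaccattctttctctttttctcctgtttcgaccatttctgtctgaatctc
F53H2.3-to-fce-2, chrV:20418953-20419053: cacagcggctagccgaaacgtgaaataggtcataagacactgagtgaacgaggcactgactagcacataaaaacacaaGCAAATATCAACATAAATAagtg
T19H5.4-to-gcy-3, chrII:9499994-9500094: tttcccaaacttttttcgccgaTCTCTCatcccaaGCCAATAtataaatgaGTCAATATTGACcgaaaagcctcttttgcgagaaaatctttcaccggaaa
nhr-61-to-cdh-7, chrII:14822555-14822655: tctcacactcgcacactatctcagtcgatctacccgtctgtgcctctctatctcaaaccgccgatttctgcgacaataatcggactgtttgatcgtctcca

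In the windows of nte-1 to pdhk-2, fbxa-219 to Y54F10BM.9 and T19H5.4 to gcy-3, a pair of forkhead matches on opposite strands overlapped at their 5′ ends and pointed away from each other, which appears above as 1 run of capitals. The gcy-12 to vhp-1 window held a consensus that ran directly on from a GA repeat. The sgn-1 to F07H5.13 window held GA repeats and no forkhead match, and the nhr-61 to cdh-7 window held neither.

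The highest distal peak lay 2087 bp from the nearest coding 5′ end, that of nte-1, a gene of the neuropathy target esterase family, on the side of pdhk-2, a pyruvate dehydrogenase kinase. Its relative signal, the height in a replicate divided by that replicate's median over all optimal peaks, was 7.52 in replicate 1 and 6.74 in replicate 2. The peak between Y57G11C.38 and eps-8, a homologue of an actin regulator, reached 5.69 and 4.93. Its summit lay 22 bp from an annotated non-coding RNA gene. The peak between sgn-1 and F07H5.13 reached 5.23 and 4.98, and that between F56C9.8 and lab-2 reached 3.71 and 4.92. In each of these 4 both replicates were several times above their median, although the order of the replicates differed.

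Among the next highest, the peak between fbxa-219 and Y54F10BM.9 had a relative signal of 4.60 in replicate 1 and 4.44 in replicate 2, and lay between converging genes. The peak between gcy-12, a receptor guanylyl cyclase, and vhp-1, a phosphatase of stress-activated kinases, had 4.38 and 4.33. The peak between sup-26, an RNA-binding protein, and R10E4.3 had 3.98 and 4.63. These replicate values lay close together. By contrast the peak beside nhr-20, a nuclear hormone receptor, had 5.59 and 3.67, and the peak 8322 bp from the start of aakg-1, a gamma subunit of AMP-activated kinase, had 5.39 and 3.29. Both were higher in replicate 1.

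The 20 highest distal peaks had a mean relative signal between 3.41 and 7.13 and ranked 391 or better in replicate 1 and 310 or better in replicate 2. Chromosome III held 9 of them, and 17.6% of all members. The highest on chromosome I, between frm-1, a FERM domain gene, and ptr-23, a patched-related gene, had 3.97 in replicate 1 and 3.92 in replicate 2. The highest on chromosome V, between F53H2.3 and fce-2, had 4.49 and 3.94. The peak between Y54G2A.11 and Y54G2A.12 on chromosome IV had 4.02 and 3.85. Others lay beside egal-1, asp-19, din-1, which acts with the steroid receptor DAF-12, abi-1, dpy-19 and nex-1, an annexin. Of the 20, 15 held a forkhead match and 12 held GAGAGA within 50 bp of the summit, against 54.7% and 31.4% of all members. The peak between ZC155.2 and nex-1 was the 1 with neither. In 16 of the 20, relative signal was higher in replicate 1.

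The typical distal peak was lower than the typical promoter peak. In the optimal list the signal of distal peaks, the authors' peak height on a scale that is not stated, ran from 41.5 to 603 with a median of 79.4. Promoter peaks, whose summits reach no farther than 1000 bp before or 200 bp past a coding 5′ end, numbered 3569 and had a median of 94.3. Peaks inside genes outside those windows numbered 1253 with a median of 74.99, and the remaining 578 intergenic peaks had 79.5. Of the 250 highest peaks of the whole optimal list 28 were distal, or 11.2% (Wilson interval 7.86 to 15.7), while distal peaks made up 9.83% of that list.

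The lower height against promoters held in both replicates. Median relative signal of distal peaks was 0.954 in replicate 1 and 0.9505 in replicate 2, and that of promoter peaks 1.10 and 1.13. The ratio of distal to promoter medians was 0.853 ± 0.0217 (SD, n = 2), so it lay below 1 by more than the spread between replicates. Against peaks inside genes the ratio was 1.07 ± 0.00767 (SD, n = 2), also beyond the spread in the other direction. Against other intergenic peaks it was 1.01 ± 0.0104 (SD, n = 2), a difference barely above that spread. In the optimal list's own signal that ratio was 0.999, on the other side of 1, so its direction was not settled. With 2 replicates an exact two-sided sign permutation cannot give a p below 0.5, so none is given here. The replicate lists also went into the optimal list and are not independent of it.

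**Figure D1:**
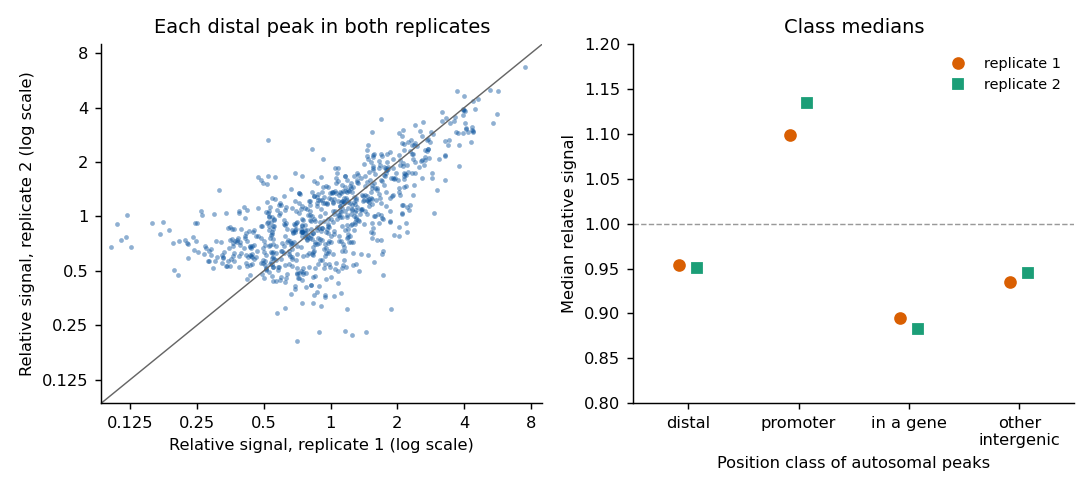
Left, relative signal of each distal peak in replicate 1 (horizontal, log scale) and replicate 2 (vertical, log scale), for the 762 members with a region in both replicates; the line marks equal values. Right, the median relative signal of each position class in each replicate on an axis that starts above 0; distal peaks sat at 0.954 and 0.9505, below promoter peaks at 1.10 and 1.13.

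Most distal peaks recurred in both replicates. Of the 771, 566 overlapped the 7847 highest regions of both replicates, or 73.4% (Wilson interval 70.2 to 76.4), against 77% of all autosomal optimal peaks and 79.9% of promoter peaks. Where a replicate had its own region, the summits of the replicates lay a median of 27 bp apart. That share rests on a limit of height in each replicate. Without it, 762 members had a region in both relaxed lists, or 98.8%. Members came from a list chosen for reproducibility between these same replicates. Both shares are therefore in large part set by that choice and are no independent check. Before the authors' reproducibility step, the pooled list held 3122 distal regions, of which 24.7% became optimal peaks, against 25.4% of autosomal regions and 39.96% of those at promoters.

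Forkhead letters were concentrated at distal summits. Within 50 bp of the summit, 422 members held the consensus, or 54.7% (Wilson interval 51.2 to 58.2), against 51.2% of all autosomal optimal peaks. In windows of equal length 500 bp to either side of the same summits the share was 27.1%, and in eligible sequence tiled in such windows it was 24.9%. Among promoter peaks it was 48.6%, among peaks inside genes 54.4% and among other intergenic peaks 55.0%. In the replicates' own lists of 7847 regions the share at distal summits exceeded that at promoters by 5.92 ± 1.63 percentage points (SD, n = 2). Distal and other non-promoter peaks were thus close to each other on this measure.

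Not every form of the consensus stood out equally. TGTTTAC was found at 8.82% of distal summits and 1.43% of the windows to the side, a ratio of 6.18. Its share of all autosomal optimal peaks was 7.65%, near the distal one. TGTTGAC had a ratio of 4.25 and TGTTTGT one of 3.95. At the other end TATTTAT had a ratio of 1.11, TATTGAT of 1.00 and TATTGGT of 0.571. The 4 forms of highest ratio all began with TG, and TATTTAT and TATTGAT were about as frequent beside the summit as under it. The inverted overlapping pair seen in the printed windows was sought after those sequences had been read: 12 of 771 members held it, against 1 of 1542 windows to the side, 142 of 96175 tiled windows, 36 of 3569 promoter peaks, 23 of 1253 peaks inside genes and 76 of all 6171 autosomal peaks. The pair was thus found in other classes of peaks too.

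GA repeats were more frequent at distal peaks than at promoter peaks. GAGAGA on either strand lay within 50 bp of 242 distal summits, or 31.4% (Wilson interval 28.2 to 34.7), against 24.8% of all autosomal optimal peaks and 22.1% of promoter peaks. Among other intergenic peaks it was 29.8% (Wilson interval 26.2 to 33.6), close to the distal share, and among peaks inside genes 26.02%. The share was 5.58% in the windows to the side and 5.68% in tiled eligible sequence. In the replicate lists distal peaks exceeded promoter peaks by 9.97 ± 1.62 percentage points (SD, n = 2), which is larger than the spread between replicates. On chromosome V, 19.0% of members held GAGAGA (Wilson interval 13.3 to 26.4), and on the other autosomes 33.3 to 34.7%.

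**Figure D2:**
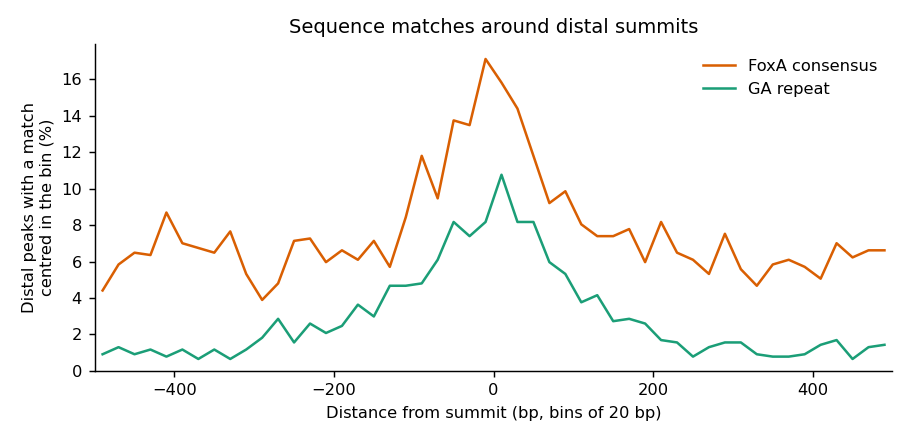
Share of the 771 distal peaks (vertical, percent) with a match centred in each 20 bp bin by distance from the summit (horizontal, bp), for the forkhead consensus and for GAGAGA on either strand. Both curves peaked at the summit, at 17.1% and 10.8% of peaks per bin.

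Taller members held more of these letters. GAGAGA was present in 43.5% of the 193 members with the highest signal and 19.2% of the 193 with the lowest, and the forkhead consensus in 60.1% and 50.8%. The 115 members with both had a median relative signal of 1.27 ± 0.0493 (mean of the replicate medians ± SD, n = 2). The 307 with the consensus alone had 0.886 ± 0.0243, the 127 with GAGAGA alone 1.04 ± 0.0301 and the 222 with neither 0.847 ± 0.0363. By these medians, members with GAGAGA were higher than members without it in both replicates, with or without the consensus.

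Further short words were concentrated at distal summits, at shares mostly near those of autosomal peaks at large. Of the words of 6 letters present at 40 or more members, GACGCA had the highest ratio of summit to side windows, at 6.69, and was found at 87 members. Its share among distal peaks was 11.3%, among promoter peaks 14.4% and among all autosomal peaks 12.6%. Of these 87 members, 39.1% held the forkhead consensus and 57.5% held GAGAGA. The word ACACAC was found at 15.8% of members, 2.92% of side windows and 13.6% of autosomal peaks. TGATAA, the core bound by GATA factors of the intestine and skin, was found at 19.97% against 10.2% to the side and 18.3% of autosomal peaks. CACGTG, an E-box, was found at 4.41% against 1.75% to the side and 4.44% of autosomal peaks. TGACTCA, the site of AP-1 factors, was found at 3.89% against 0.908% to the side and 2.67% of autosomal peaks. Median GC content was 40.6% at distal summits, 32.7% in side windows and 33.7% in tiled windows, and its part in these shares was not tested.

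Repeats lay under few of the summits. In 78 members, or 10.1%, most of the window was marked as repeat in the RefSeq genome, against 10.6% of all autosomal peaks. Of all eligible bases, 44.8% were marked as repeat. Every density per Mb given here counts those bases, and the part of repeats in the densities was not tested. In 757 members, or 98.2%, every stretch of 31 bases in the window occurred once in the genome, against 97.4% of autosomal peaks. The sources used here do not say how the alignment treated repeats.

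Distal peaks were spread unevenly along chromosomes even per unit of eligible sequence. Chromosome I held 161 of them at 98.8 per Mb, chromosome II 147 at 78.5, chromosome III 136 at 80.7, chromosome IV 190 at 62.4 and chromosome V 137 at 58.0. Outside the set, chromosome X held 85.0 per Mb by the same rule. Each autosome was cut in 3 equal lengths. The middle lengths, which hold the gene-rich centres, had 93.4 distal peaks per Mb (Poisson interval 83.2 to 104.5), the left ones 66.9 and the right ones 60.6. The middle exceeded the outer lengths by a ratio of 1.51 ± 0.0128 (SD, n = 2) in the replicates' own lists.

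**Figure D3:**
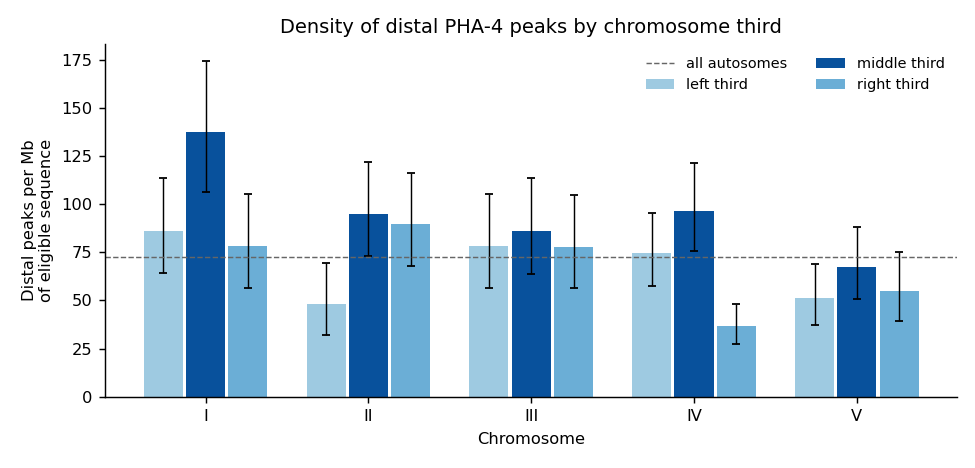
Distal peaks per Mb of eligible sequence (vertical) for 3 equal lengths of each autosome (horizontal); bars are counts over eligible length, whiskers exact 95% Poisson intervals that cover counting of peaks only, and the dashed line all autosomes at 72.8. The middle length was highest on every autosome, from 67.6 on chromosome V to 137 on chromosome I, and the right end of chromosome IV was lowest at 36.6. On every autosome the interval of the middle length overlapped that of at least 1 outer length, and on chromosomes III and V those of both.

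The low density at the right end of chromosome IV coincided with piRNA genes, short non-coding genes whose small RNAs guard the germline. That chromosome holds 14714 of them in the annotation. In its right length, eligible sequence within 250 bp of a piRNA gene held 15.9 distal peaks per Mb, and sequence farther away held 70.4. In the left length the values were 79.9 and 73.9, and in the middle 75.3 and 100.1. Density near piRNA genes was thus far lower in the right length, lower in the middle and slightly higher in the left. The values near piRNA genes rest on 14 members in the right length, 8 in the middle and 8 in the left. Whether the genes or the region goes with the lower density was not tested.

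Density also fell with distance from coding starts. It was 86.6 per Mb of eligible sequence from 2000 to 3000 bp, 82.3 from 3000 to 4000 bp, 71.4 from 4000 to 6000 bp, 45.9 from 6000 to 8000 bp and 41.2 beyond. The ratio of the farthest to the nearest bin was 0.489 ± 0.0653 (SD, n = 2) in the replicate lists. The median member lay 3329 bp from a coding 5′ end and the farthest 16630 bp. Height showed no such fall: median relative signal, averaged over the replicates, was 0.933 ± 0.0229 (SD, n = 2) in the nearest bin and 0.933 ± 0.0580 in the farthest. In the bins between, in order of distance, it was 0.979 ± 0.0113, 0.908 ± 0.0409 and 1.07 ± 0.105.

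Just inside the limit, the peaks between col-118 and alp-1 and between bicd-1 and C43G2.3 lay 2001 bp from a start, with a relative signal of 0.884 ± 0.344 and 1.48 ± 0.0702, and the peak between T09B4.4 and T09B4.3 lay 2021 bp away with 2.10 ± 0.675. Just outside it, the peaks beside svop-1, M02B1.3 and osta-2 lay 1997, 1995 and 1994 bp away with 0.917 ± 0.210, 0.986 ± 0.318 and 0.962 ± 0.270 (SD, n = 2 throughout).

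The arrangement of the coding genes on either side went with density as well. Between genes that converge, so that both 3′ ends face the space, 51 members lay in 1.74 Mb, or 29.3 per Mb (Poisson interval 21.8 to 38.6). Between genes in tandem there were 452 at 80.6 per Mb, and between diverging genes 267 at 82.5. The ratio of convergent to tandem density was 0.375 ± 0.0515 (SD, n = 2) in the replicate lists, beyond the spread between replicates, and that of divergent to tandem 1.04 ± 0.0114. The forkhead consensus was found in 17 of the 51 convergent members, or 33.3% (Wilson interval 21.97 to 47.03), against 56.4% in tandem and 56.2% in divergent spaces. Eligible sequence within 250 bp of a coding 3′ end held 98.9 distal peaks per Mb, that from 250 to 500 bp 34.4, and that farther away between 72.6 and 73.2. The replicate lists moved the second of these, to 39.0 in replicate 1 and 55.0 in replicate 2, and the ratio of the nearest bin to it from 2.88 to 2.19 and 1.97.

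The rule leaves non-coding starts aside, and 379 members, or 49.2% (Wilson interval 45.6 to 52.7), lay within 2000 bp of the 5′ end of a non-coding gene. Of eligible sequence 45.4% lay as near to one, so the members stood close to that share. Within 250 bp of a non-coding gene of any type the density was 71.0 per Mb, also close to the 72.8 of all eligible sequence, but it differed between types. Within 250 bp of a snoRNA gene, whose products guide modification of ribosomal RNA, eligible sequence held 517 distal peaks per Mb from 10 members. The density was 443 per Mb near tRNA genes, also from 10 members, 272 near microRNA genes from 6 and 187 near genes annotated as ncRNA from 73. Near piRNA genes it was 28.7 from 32 members and near pseudogenes 45.5. Of those 32 members, 30 lay on chromosome IV. Of the 1.11 Mb near piRNA genes, 0.879 Mb was in the right length of that chromosome, described above, so the value mostly reflects that region. In the replicate lists the ratio to overall density was 7.43 ± 0.378 (SD, n = 2) for snoRNA, 5.47 ± 1.81 for tRNA, 4.33 ± 0.805 for microRNA and 2.60 ± 0.0566 for ncRNA genes. For lincRNA genes it was 1.74 ± 1.08, on opposite sides of 1 in the replicates.

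Among these neighbours, the peak near mir-2215 between sam-10 and mrpl-20 had a relative signal of 2.45 ± 0.489 (SD, n = 2), and the peak 73 bp from mir-60 between sma-6, a TGF-beta receptor, and set-4 had 1.15 ± 0.0546. Members beside tRNA genes were low, with a median relative signal, averaged over the replicates, of 0.658 ± 0.0157 (SD, n = 2). The same measure for those beside ncRNA genes stood at 1.12 ± 0.0962. Such genes have starts of their own, which the rule for distal peaks does not consider. Density where no non-coding gene lay within 250 bp was 73.1 per Mb.

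**Figure D4:**
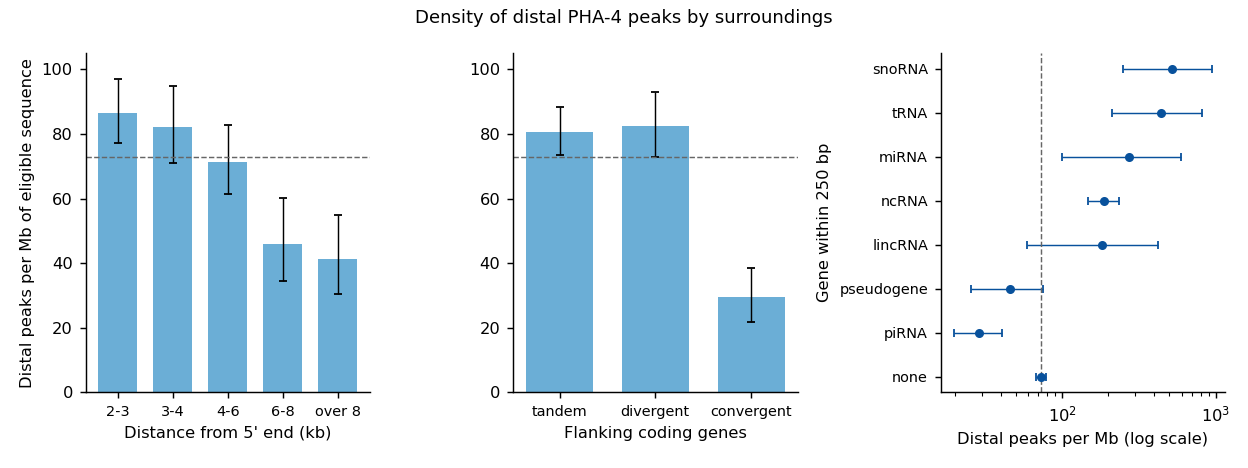
Distal peaks per Mb of eligible sequence by distance from the nearest coding 5′ end (left), by arrangement of the flanking coding genes (middle) and within 250 bp of non-coding genes by type (right, log scale). Whiskers are exact 95% Poisson intervals on counts of peaks and dashed lines mark 72.8; density fell from 86.6 to 41.2 with distance, was 29.3 between convergent genes and reached 517 beside snoRNA genes.

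Distal peaks often shared an intergenic space. The 771 lay in 570 spaces between neighbouring genes of any kind, out of 9531 that contain eligible sequence. Of these spaces 429 held 1 distal peak and 141 held 2 or more, with 342 members, or 44.4% (Wilson interval 40.9 to 47.9). No such share is given here for other classes of peaks. Distal summits lay a median of 1774 bp from the next optimal summit, promoter summits 2863 bp and all autosomal summits 2207 bp. Another summit lay within 1000 bp of 23.7% of distal, 19.9% of promoter and 23.2% of all autosomal summits. By that share distal peaks stood close to autosomal peaks at large, while by the median their next summit was nearer. A total of 22 members overlapped another optimal peak, and 2 shared their whole interval with one.

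The space between F53H2.3 and fce-2, a CAAX protease gene, on chromosome V held 6 members over 13541 bp. The tallest had a signal of 362 and the other 5 lay between 52.9 and 102. The space between T19H5.4 and gcy-3, a receptor guanylyl cyclase, on chromosome II also held 6, from 43.9 to 137, and 4 of them stood within the last part of the space towards gcy-3. The space between W06H8.6 and K08B12.3 held 5 members in 5199 bp, all 5 with the forkhead consensus and none with GAGAGA. Its tallest peaks, at 308 and 298, flanked 2 lower ones at 88.4 and 60.9.

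In all, 7 spaces held 5 or 6 members. The space between nhr-61 and cdh-7, a cadherin gene, spanned 24685 bp and held 5 members from 42.3 to 185. That between gei-8, a nuclear receptor corepressor, and rpl-21, a ribosomal protein gene, held 5 from 52.6 to 165. The spaces between asp-13 and ZC190.4 and between Y69E1A.8 and Y43E12A.2 also held 5 each, from 74.6 to 130 and from 54.2 to 95.5. In the first 1 of the 5 held the forkhead consensus, and in the other 0 of 5 did. Between the coding genes irld-18 and dmd-6, a DM domain gene, on chromosome IV there were 7 members in 7 spaces separated by non-coding genes, from 41.9 to 265, and 6 of them held the forkhead consensus.

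**Figure D5:**
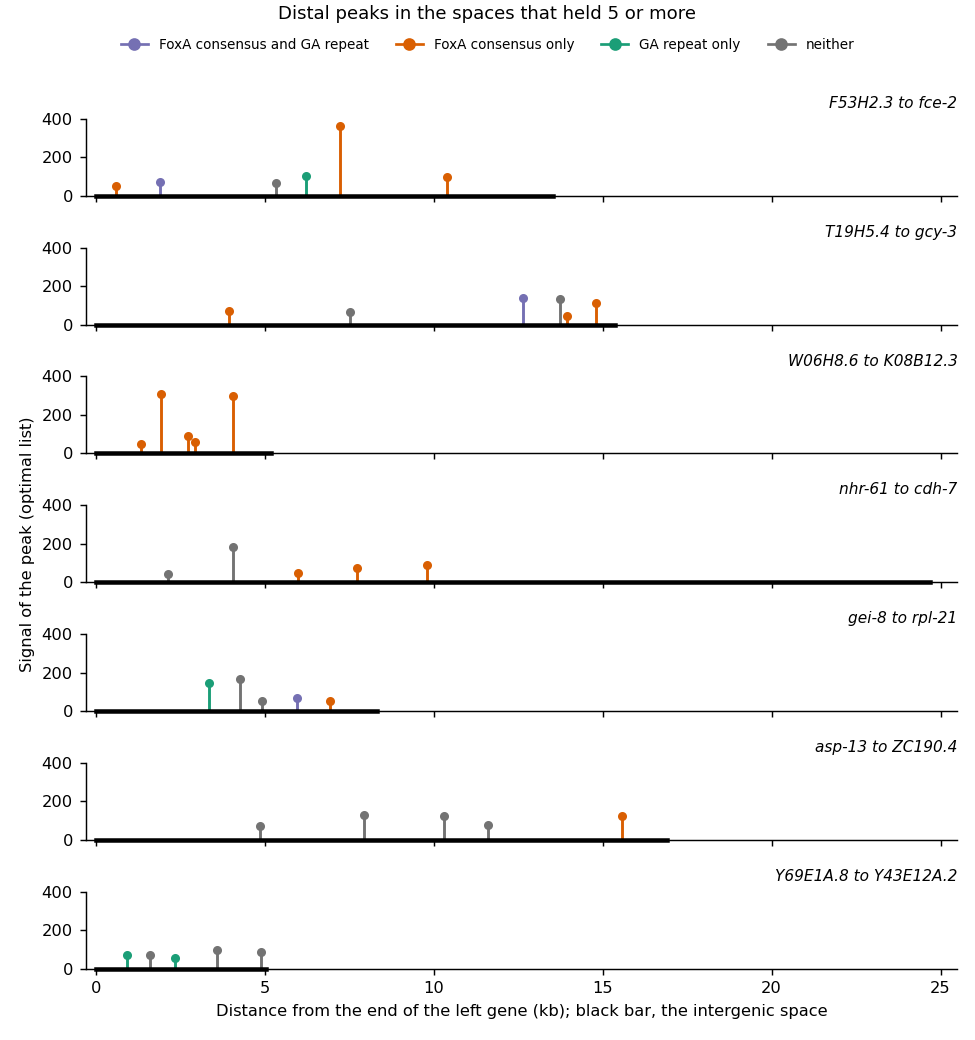
Distal peaks in the 7 intergenic spaces that held 5 or 6, by distance of the summit from the end of the left gene (horizontal, kb) and signal in the optimal list (vertical); colour gives the sequence matches within 50 bp and the black bar the space. In the top space 1 peak at 362 stood among 5 lower ones, and in the space from W06H8.6 to K08B12.3 all 5 peaks held the forkhead consensus, against 0 of 5 from Y69E1A.8 to Y43E12A.2.

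The coding genes next to distal peaks were counted by family, as labels of genes and not of cells. Of 6191 autosomal coding genes with eligible sequence beside them, 930 or 15% flanked a distal peak. Nuclear hormone receptor genes stood near that share, with 22 genes or 18.5% (Wilson interval 12.5 to 26.4). Their tallest neighbours were those of nhr-20 at a signal of 365, nhr-88 at 290 and nhr-4 at 208, and each of these genes had 4 members beside it. Chemoreceptor genes stood below it, with 14 of 496 or 2.82% (Wilson interval 1.69 to 4.68), and C-type lectin genes with 1 of 73, clec-182. Ribosomal protein genes had 4 of 9 (Wilson interval 18.9 to 73.3), rps-28, rpl-21, rpl-31 and rps-27.

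Heterochronic genes, which time larval stages, had 2 of 3 (Wilson interval 20.8 to 93.9). One was lin-41, a TRIM protein under let-7 control, beside a peak with a signal of 156. That peak lay between converging genes, and the nearest start was that of cbl-1, 3613 bp away. The other was lin-29, a zinc finger factor of the adult switch, beside a peak of 107. Forkhead genes had 2 of 8 (Wilson interval 7.15 to 59.1), fkh-7 and daf-16, the FoxO factor of insulin signalling. The daf-16 peak had a relative signal of 1.39 in replicate 1 and no region in replicate 2. Intestinal genes had 3 of 10 (Wilson interval 10.8 to 60.3): fat-5, a fatty acid desaturase, asp-1, an aspartyl protease, and erm-1, an apical membrane linker. Their peaks had signals of 80.0, 60.6 and 43.0. Genes listed for the pharynx had 0 of 9, body wall muscle 0 of 8, neurons 0 of 8 and GATA factors 0 of 4, and the Wilson intervals of these counts reach 29.9% or more, so they include 15%.

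The remaining families were homeobox genes with 3 of 29, the tallest beside ceh-58 at 167, collagens with 3 of 30, cytochrome P450 genes with 3 of 28, the tallest beside cyp-23A1 at 229, neuropeptide and insulin-like genes with 3 of 57, among them ins-8 at 160 and flp-15 at 149, and helix-loop-helix genes with 1 of 13, hlh-10.

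Genes whose start was the nearest to a distal peak often had a promoter peak too. Of 566 such genes 217 did, or 38.3% (Wilson interval 34.4 to 42.4), against 23.8% of all autosomal coding genes. Among 4897 genes nearest to eligible sequence that held no distal peak the share was 16.2% (Wilson interval 15.2 to 17.2). A distal peak is assigned here by distance alone, and which gene it acts on, if any, cannot be read from these data.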

How the data were processed

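The data are ChIP-seq peak lists for eGFP-tagged PHA-4 in 2 biological replicates of 1 group. Per the deposited manifests, each replicate's relaxed list of 30000 regions came from its alignment and a shared control file, a pooled list from both, and the optimal list from these by an irreproducible discovery rate step. Aligner, caller, versions, threshold and depth: not given in the sources used here. Deposited lists give signal, whose scale is not stated, the q-value as −log10, at a ceiling of 4.15 for 677 members and used only to describe, and a summit offset, used as start plus offset. The ce10 lists were not used.

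Summits were placed on Ensembl release 115 genes on WBcel235, the assembly of ce11; 960 symbols came from RefSeq. Eligible sequence was all bases meeting the members' rule. Shares carry Wilson and densities exact Poisson intervals at 95%, which cover counting of peaks only. Replicates were compared as mean ± SD of relative signal or of each replicate's own highest 7847 regions. For a group of peaks, the relative signal was the group's median in each replicate. A difference counted as larger than the replicate spread where both went 1 way and its mean exceeded its SD. With 2 replicates no p-value is printed. The labels do not say whether replicates came from separate cultures beyond calling them biological. Named were the 20 highest members, the highest per autosome, 5 of the 7 spaces with 5 or 6 members, taken by count and then signal, up to 3 genes per list and 3 peaks to either side of the limit; the other 2 such spaces, the irld-18 to dmd-6 group, members by microRNA genes, further members of short lists and the inverted pair were chosen after their values were seen. The members, lists and alternatives were chosen with earlier results of these data known. Placement, density and motif search were tested on simulated data. Figures were drawn with Matplotlib 3.10.9; pandas 2.3.3, SciPy 1.17.1 and NumPy 2.4.6 ran under Python 3.11.15.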

Additional observations from a re-analysis of the deposited data

How the results depend on the processing

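No paired analysis was possible because the series holds 1 group. Of 110 alternative values, 63 stayed within the interval or spread of the reported value, or within 1.5 times the reported count, and 47 moved. The ratio of signal to promoter peaks stayed below 1 under every alternative run; other measures were not compared with promoters there. With limits of 1000, 3000 and 5000 bp, there were 1312, 468 and 169 distal peaks, 21.3%, 7.58% and 2.74% of autosomal peaks, at 82.2, 66.0 and 51.3 per Mb; at 3000 and 5000 bp, relative signal was 0.965 and 0.972 and the share in a shared space 39.7% and 33.1%. At 5000 bp, 77.5% recurred in both replicates, 27.2% held GAGAGA and 10.7% lay between convergent genes. With 5′ ends of every biotype, there were 392 peaks (6.35%, 67.7 per Mb), with a relative signal of 0.918, a ratio to promoters of 0.822, 50.8% in a shared space and 3.83% between convergent genes. With the whole peak required to be distal, the share was 9.98%, at 58.1 per Mb, and the relative signal 0.997 (ratio 0.893). Among optimal peaks above the median signal, there were 361 (11.3%, 34.1 per Mb), with a relative signal of 1.51, a ratio of 0.934, 97.5% recurring, 39.1% with GAGAGA and 30.2% in a shared space. Here the relative signal and the share recurring are in large part set by that choice of height. RefSeq genes gave a relative signal of 0.970, and optimal-list signal 0.938. A promoter window of 500 bp upstream to 100 bp downstream gave a ratio of 0.824. Summits within 100 bp recurred for 70.0%, and any region of both relaxed lists for 98.8%. Within 25 and 100 bp of the summit the consensus was found in 35.0% and 71.3%, and GAGAGA in 17.3% and 44.2%; TGTTTAC alone gave 8.82% and GAGAGAGA 10.4%. With each chromosome cut in 4, the outermost lengths held 41.4% of members, and their share of eligible sequence was not computed. With 3 lengths the outer ones held 60.3%. Of eligible sequence, 32.3% lay in the left lengths and 36.8% in the right ones, so the outer ones held fewer members than their share. With either replicate left out, counts ran from 765 to 783 and the ratio to promoters from 0.838 to 0.868. The unknown depth limits every statement on peaks that are absent, and the 2 replicates limit every spread given.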
